A study of Mus musculus with 16 samples.

Results

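The collagen genes were followed across cultures of mouse embryonic stem (ES) cells on a stromal layer and cultures of that stroma alone. The members were all genes whose target name on the array read COL, a number, A and a number, and 88 of 45281 probes, for 40 of 30854 target names, met this rule. COL4A3BP, whose product is a lipid transfer protein and no collagen, was not counted. By class the 40 genes comprised 11 fibrillar collagens, 9 of basement membranes and their anchoring zones, 3 chains of collagen VI, 9 of the fibril-associated group (FACIT), 3 of short chain networks, 4 with a membrane-spanning segment, and COL28A1.

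ES cells carrying EGFP knocked in at the τ locus had been grown on a monolayer of PA6, a stromal cell line derived from the bone marrow of mice, and the same line had been kept alone in parallel. All cultures had been kept in serum-free medium and harvested at day 7. Some had been left without growth factors (-GFs), some had received 20 ng/ml of FGF2, and others 10 ng/ml of BMP4, the dose in the labels, for the first 3 days. The ES/PA6 co-cultures gave 2 arrays in -GFs medium, 3 with FGF2 and 2 with BMP4, and PA6 alone gave 3 arrays of each kind. Total RNA came from whole wells, so a co-culture array measured ES-derived and PA6 transcripts together, and since both partners were mouse the probes could not assign a transcript to either. The labels speak of biological replicates, and every p-value below measures the spread between these cultures.

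Collagens are proteins of the extracellular matrix in which 3 α chains wind into a triple helix, and each gene here encodes an α chain. Fibrillar chains, such as those of collagen I and III, assemble into the fibres made mainly by fibroblasts and other stromal cells, whereas collagen IV forms the sheet-like network of basement membranes under epithelium and around vessels. Chains of a heterotrimer, such as COL1A1 with COL1A2, COL4A1 with COL4A2, or the chains of collagen VI, have to be made by the same cell to be assembled. Prolyl hydroxylases stabilize the helix and need ascorbic acid, which the medium contained.

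A probe was detected where its detection p, which gives how often negative control beads outshone it, was under 0.05. Between 37.3% and 47.0% of all probes were detected per array. Detection on every array of at least 1 group was required, which 14829 genes and 31 of the 40 collagen genes met. Levels are normalized log2 intensities, differences are log2 fold changes with their standard error (SE), and a gene was called at a Benjamini-Hochberg adjusted p under 0.1 in limma, taken over all 14829 genes, and a log2 fold change over 1 in size. Levels of different genes are not compared, since each probe has its own brightness. Marker genes followed the labels. The summed intensity of the neural list ran from 592 to 907 on PA6 arrays and from 27629 to 69555 on co-culture arrays, and that of the pluripotency list from 692 to 1299.7 and from 42898 to 145262.

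**Figure D1:**
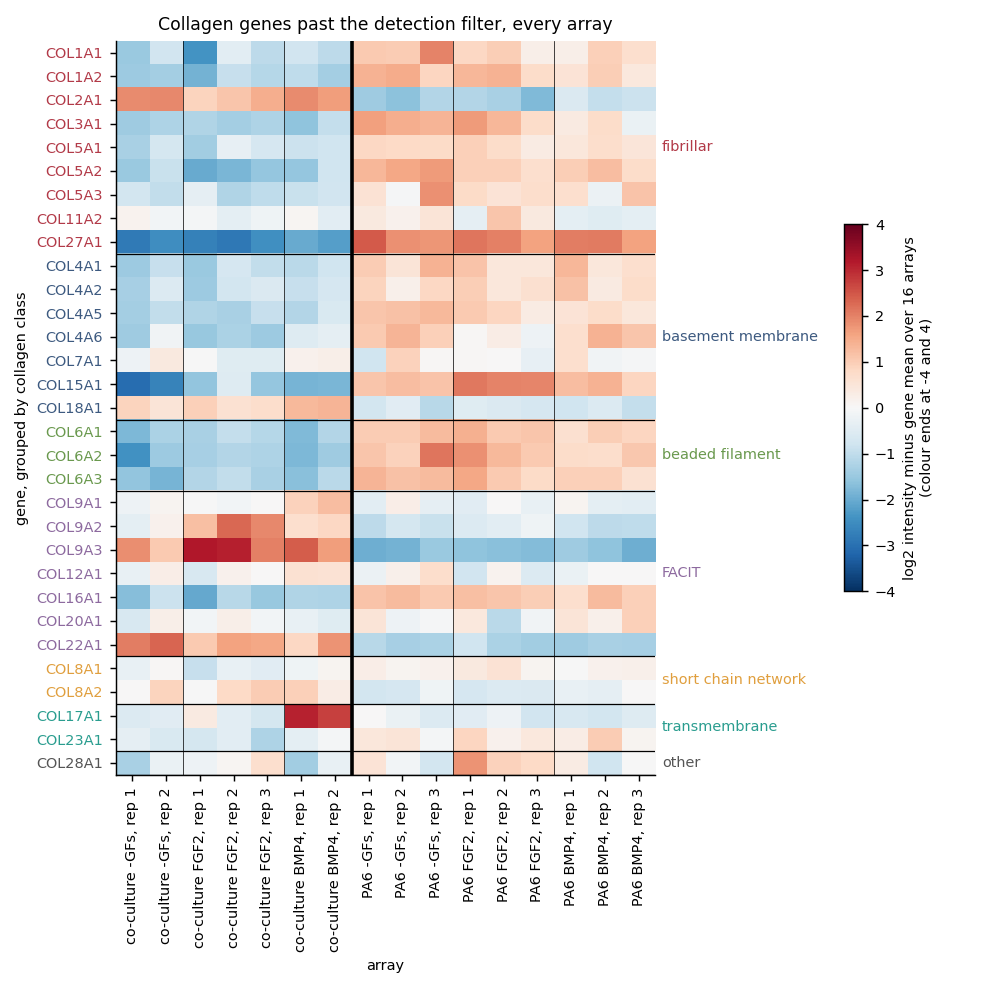
Heat map of the 31 collagen genes past the detection filter, a row per gene grouped by class and a column per array. Colour gives the log2 intensity minus the mean of that gene over the 16 arrays. The rows of collagen I, III, V, VI, XV, XVI and XXVII and of the collagen IV chains were low on the 7 co-culture arrays and high on the 9 PA6 arrays, and those of COL2A1, COL9A3, COL18A1 and COL22A1 ran the other way.

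The promoters of 4 genes that the comparison of both cultures turned on are shown for their composition and for the place of the COL4A5 and COL4A6 starts. Each is the 250 bases before the RefSeq transcript start on GRCm38.p6, written 5′ to 3′ on the strand of the gene, with matches on either strand to GGGCGG (the GC box bound by Sp1), CCAAT (bound by NF-Y) and TATAA (the core of the TATA box) in capitals. Col1a2 (chr6:4505368-4505617, plus strand) encodes a chain of the main fibrillar collagen and Col3a1 (chr1:45311288-45311537, plus strand) the chain of collagen III. Col4a6 (chrX:141474077-141474326, minus strand) and Col4a5 (chrX:141475169-141475418, plus strand) are read away from each other from starts 1343 bases apart.
Col1a2: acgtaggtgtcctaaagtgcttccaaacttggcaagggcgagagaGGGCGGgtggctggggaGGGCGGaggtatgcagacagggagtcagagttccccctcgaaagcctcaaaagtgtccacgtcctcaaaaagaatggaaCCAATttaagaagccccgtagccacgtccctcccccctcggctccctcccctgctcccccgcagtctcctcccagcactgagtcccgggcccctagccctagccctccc
Col3a1: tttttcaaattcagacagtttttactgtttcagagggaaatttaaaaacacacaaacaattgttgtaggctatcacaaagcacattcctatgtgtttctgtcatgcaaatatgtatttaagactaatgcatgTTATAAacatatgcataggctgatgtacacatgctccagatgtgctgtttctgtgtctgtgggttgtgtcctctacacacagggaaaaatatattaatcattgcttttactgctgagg
Col4a6: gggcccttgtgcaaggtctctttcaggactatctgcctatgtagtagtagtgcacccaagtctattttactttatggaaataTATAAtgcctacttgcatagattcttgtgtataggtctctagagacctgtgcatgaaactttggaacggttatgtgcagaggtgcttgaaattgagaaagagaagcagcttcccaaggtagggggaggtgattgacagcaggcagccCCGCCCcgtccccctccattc
Col4a5: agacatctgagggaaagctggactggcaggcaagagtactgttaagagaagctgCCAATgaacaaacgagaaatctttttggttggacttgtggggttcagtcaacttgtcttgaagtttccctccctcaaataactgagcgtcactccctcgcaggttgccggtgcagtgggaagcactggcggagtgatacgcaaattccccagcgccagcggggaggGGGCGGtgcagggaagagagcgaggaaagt

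The Col1a2 window had a GC content of 62.0% with 2 GC boxes and a CCAAT box, and the Col3a1 window one of 35.2% with neither. In Col3a1 the only match was TATAA, read on both strands at 1 overlapping place. Col4a6 and Col4a5 each held 1 GC box, beside a TATAA match in Col4a6 and a CCAAT match in Col4a5. Such a window was found for 32 of the 40 genes. Over all 38 mouse collagen windows in the table, 57.9% held GGGCGG, 34.2% CCAAT and 18.4% TATAA, beside 32.7%, 33.8% and 22.8% of all 32851 windows. These matches describe the letters and do not show binding. The genome also places 4 pairs of measured collagen genes side by side, COL3A1 with COL5A2 on chromosome 1, COL6A1 with COL6A2 on chromosome 10, COL4A1 with COL4A2 on chromosome 8 and COL4A5 with COL4A6 on chromosome X. Both members of each pair were lower in co-cultures in all 3 media, where 16 of the 31 collagen genes tested were. The share of other neighbouring gene pairs is not given here, and a part of the position was not tested.

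The genes of collagen I, III, V, VI, XV, XVI and XXVII and 4 collagen IV chains were lower in ES/PA6 co-cultures than in PA6 cells alone, whatever the medium. In -GFs medium 16 of the 31 collagen genes were lower and 4 higher, where 21.8% of all genes tested were lower and 22.3% higher. With FGF2, 18 were lower and 6 higher (background 22.9% and 23.4%). With BMP4, 16 were lower and 7 higher (background 20.3% and 22%). The median log2 difference of the collagen genes was −1.58 in -GFs medium, −1.46 with FGF2 and −1.36 with BMP4, beside medians over all genes of 0.03, −0.04 and 0.01. The 3 media were compared on different arrays, and 16 genes were lower and 4 higher in all of them. The 4 were COL2A1, COL9A3, COL18A1 and COL22A1, which belong to 3 classes. The share of all genes called the same way in all 3 media is not given here, and the backgrounds above are for single media.

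Among fibrillar collagens 7 of the 9 genes tested were lower in each medium, COL2A1 was higher and COL11A2 was not called. COL1A1, a chain of collagen I, stood at 11.23 and 11.93 in -GFs co-cultures, at 10.31, 12.29 and 11.66 with FGF2, and at 11.96 and 11.68 with BMP4. In PA6 alone it stood at 13.75, 13.72 and 14.71, at 13.55, 13.70 and 12.94, and at 12.96, 13.65 and 13.38. No co-culture array reached the lowest PA6 array, although the co-cultures of -GFs and FGF2 spread widely. The -GFs difference was −2.48 ± 0.48, a 5.57-fold lower level (adjusted p = 0.000514), with 3.92-fold under FGF2 and 2.85-fold under BMP4.

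COL1A2, the partner chain, was tighter. Its levels were 11.02 and 11.13 in -GFs co-cultures, 10.60, 11.56 and 11.35 with FGF2, and 11.48 and 11.11 with BMP4, against 13.88, 13.97 and 13.33 in PA6 alone, 13.80, 13.88 and 13.22 with FGF2, and 13.02, 13.47 and 12.90 with BMP4. The level was 6.28-fold lower in -GFs medium (−2.65 ± 0.30, adjusted p = 4.52e-06), 5.50-fold with FGF2 and 3.57-fold with BMP4. All 7 co-culture arrays lay below all 9 PA6 arrays.

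COL3A1, which forms thin fibres together with collagen I, showed a similar gap. Co-cultures had 10.71 and 10.92 in -GFs medium, 10.93, 10.79 and 10.91 with FGF2, and 10.55 and 11.19 with BMP4. PA6 alone had 13.78, 13.60 and 13.52, then 13.84, 13.46 and 12.88, and 12.51, 12.90 and 11.87 with BMP4. The co-culture arrays lay between 10.55 and 11.19 whatever the medium, while in PA6 the BMP4 arrays held the lowest values, with 12.90 just above the lowest FGF2 array. COL3A1 was 7.05-fold lower in -GFs co-cultures (−2.82 ± 0.30, adjusted p = 2.57e-06), 5.73-fold with FGF2 and 2.94-fold with BMP4.

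COL27A1, a fibrillar chain known from cartilage, had the lowest log2 difference of all collagen genes in each medium. It stood between 5.70 and 6.56 on the 7 co-culture arrays and between 10.17 and 11.03 on the 9 PA6 arrays. No probe of the gene was detected in -GFs or FGF2 co-cultures, so its level there was at least 16.6-fold and at least 16.1-fold lower (adjusted p = 2.95e-09 and 8.29e-10). It was 16.2-fold lower with BMP4, where it was detected at 6.56 and 6.37. COL5A2, a chain of collagen V that sets fibril width, ran from 6.60 to 7.82 in co-cultures and from 9.29 to 10.34 in PA6, a 6.54-fold difference in -GFs medium. COL5A1 was lower by a log2 difference of −1.81 ± 0.27 and COL5A3 at least 2.71-fold lower in the same medium.

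COL2A1, the main collagen of cartilage, which early neural and notochordal tissue also makes, was the exception among fibrillar genes. It was measured at 9.61 and 9.64 in -GFs co-cultures, at 8.62, 8.83 and 9.18 with FGF2, and at 9.63 and 9.42 with BMP4. PA6 arrays ran from 5.97 to 7.14. COL2A1 was at least 7.66-fold higher in -GFs co-cultures (3.30 ± 0.22, adjusted p = 2.81e-08), at least 4.20-fold higher with FGF2 and 6.03-fold higher with BMP4. Markers of cartilage were divided. Of the 3 cartilage markers tested, the regulator SOX5 was higher, and the matrix protein COMP and the regulator SOX9 were lower, in every medium. Their part in the level of COL2A1 was not tested. COL11A2 differed by −0.34 with a 95% interval from −1.01 to 0.32 in -GFs medium.

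Among the basement membrane collagens 5 of the 7 tested were lower in each medium, COL18A1 was higher and COL7A1, the collagen of anchoring fibrils under epithelium, was not called. COL4A1, a chain of the common collagen IV network, stood at 11.67 and 12.19 in -GFs co-cultures, at 11.65, 12.44 and 12.15 with FGF2, and at 12.05 and 12.32 with BMP4. In PA6 it stood at 14.14, 13.63 and 14.51, at 14.25, 13.57 and 13.58, and at 14.46, 13.56 and 13.78. The groups did not overlap, and the fold was 4.49 in -GFs medium (−2.17 ± 0.34, adjusted p = 7.84e-05), 3.29 with FGF2 and 3.36 with BMP4.

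COL4A2, its partner in the heterotrimer, had 10.67 and 11.46 in -GFs co-cultures, 10.54, 11.27 and 11.41 with FGF2, and 11.06 and 11.31 with BMP4. PA6 alone had 12.89, 12.21 and 12.83, then 12.99, 12.44 and 12.64, then 13.16, 12.35 and 12.72. The first FGF2 co-culture was the lowest array for both chains. The fold for COL4A2 was 2.98, 3.06 and 2.94 in -GFs, FGF2 and BMP4 medium. COL4A5 and COL4A6, chains of another collagen IV network, were 5.10-fold and 3.74-fold lower in -GFs co-cultures. COL4A6 was the only gene lower in all 3 media whose cultures overlapped over the media, with a co-culture array at 7.39 and a PA6 array at 7.31.

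COL15A1 and COL18A1 encode the related collagens XV and XVIII, which carry glycosaminoglycan chains and sit in basement membranes, and they went opposite ways. COL15A1 had 6.06 and 6.42 in -GFs co-cultures, 7.51, 8.59 and 7.55 with FGF2, and 7.23 and 7.27 with BMP4. In PA6 alone it had 10.21, 10.33 and 10.23, then 11.20, 11.08 and 11.05, then 10.34, 10.49 and 9.97. COL15A1 was 16.1-fold lower in -GFs co-cultures (−4.01 ± 0.27, adjusted p = 3.55e-08), 9.37-fold with FGF2 and 8.09-fold with BMP4.

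COL18A1, whose end fragment is endostatin, had 12.74 and 12.34 in -GFs co-cultures, 12.80, 12.45 and 12.53 with FGF2, and 13.14 and 13.18 with BMP4. PA6 alone had 11.09, 11.38 and 10.73, then 11.34, 11.26 and 11.16, then 11.03, 11.30 and 10.88. The co-culture level was 2.77-fold higher in -GFs medium (1.47 ± 0.20, adjusted p = 2.71e-05), 2.53-fold with FGF2 and 4.26-fold with BMP4. With arrays scaled to 1 median in place of quantile normalization, the FGF2 difference was 0.97 and missed the fold threshold.

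Collagen VI forms beaded filaments around cells, and all 3 of its chains on the array were lower in each medium. COL6A1 ran from 12.46 to 13.30 over the co-cultures and from 14.88 to 15.67 over PA6, COL6A2 from 8.69 to 9.93 and from 11.81 to 13.25, and COL6A3 from 11.10 to 11.98 and from 13.58 to 14.54. None of the 3 overlapped. The levels were 6.14-fold, 10.1-fold and 8.02-fold lower in -GFs medium, with adjusted p of 2.46e-07, 2.18e-06 and 1.42e-07. The brightest collagen probe on any array, of COL6A1, had a raw intensity of 51424, below the 72205 of the brightest probe on the arrays.

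The FACIT collagens, which lie on the surface of fibrils, split. COL16A1 was lower, at 10.92 to 12.11 in co-cultures against 13.63 to 14.23 in PA6, a 5.37-fold difference in -GFs medium, 6.31-fold with FGF2 and 4.58-fold with BMP4. COL22A1, known from tissue junctions such as the myotendinous one, was at 8.90 and 9.18 in -GFs co-cultures, at 7.89, 8.44 and 8.38 with FGF2, and at 7.66 and 8.64 with BMP4. Its PA6 arrays ran from 5.41 to 6.04 with no detected probe, so it was at least 5.09-fold, at least 2.70-fold and at least 2.46-fold higher.

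COL9A3, a chain of collagen IX, the FACIT that coats collagen II fibrils, had 9.29 and 8.46 in -GFs co-cultures, 10.63, 10.52 and 9.43 with FGF2, and 9.82 and 9.09 with BMP4. The gene was undetected in PA6, where its arrays ran from 5.46 to 6.01, and it was at least 4.54-fold, at least 10.5-fold and at least 6.10-fold higher in co-cultures. COL9A2, another chain of the same trimer, was called with FGF2 (2.19 ± 0.24, 4.58-fold) and with BMP4 (at least 1.97-fold) but not in -GFs medium (0.77 ± 0.27, below the fold threshold). COL9A1, the remaining chain, was called with BMP4 alone (at least 1.08-fold). That call was lost without background correction (0.88) and with an offset of 50 (0.91). Without the detection filter another probe was read, and its difference was −0.51. COL12A1 was not called in any medium, its interval in -GFs medium running from −0.95 to 0.44, and neither was COL20A1.

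Of the other classes, COL8A1, a short chain collagen of vessel walls and the cornea, differed by −0.31 in -GFs medium (95% interval from −0.76 to 0.13). With FGF2 it was −0.91 (adjusted p = 0.00062), short of the fold threshold, which it passed at −1.30 under median scaling. COL8A2 was called higher with FGF2 only (1.19 ± 0.29, at least 1.04-fold), and was no longer called without the third FGF2 co-culture (0.98). It was also not called with a block for replicate number (0.61) or for the run of array columns (0.36). COL23A1, a membrane collagen, was lower with FGF2 (−1.27 ± 0.28). Its call was lost with a block for replicate number (−0.84) or for the run of array columns (−0.92), and without background correction (−0.97). COL28A1 was also lower with FGF2, just past the fold threshold (adjusted p = 0.0567), and that call was lost without the first or second FGF2 co-culture or the first FGF2 PA6 array. COL17A1 was higher with BMP4 only (3.54 ± 0.28, at least 4.87-fold).

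Genes with several probes past the filter gave the same direction. The other such probes of called collagen genes had the sign of the main probe in 13 of 13 cases in -GFs medium, 14 of 14 with FGF2 and 15 of 15 with BMP4. Probes short of the filter were not counted. Among them was the COL9A1 probe read without the filter, whose difference with BMP4 was −0.51.

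**Figure D2:**
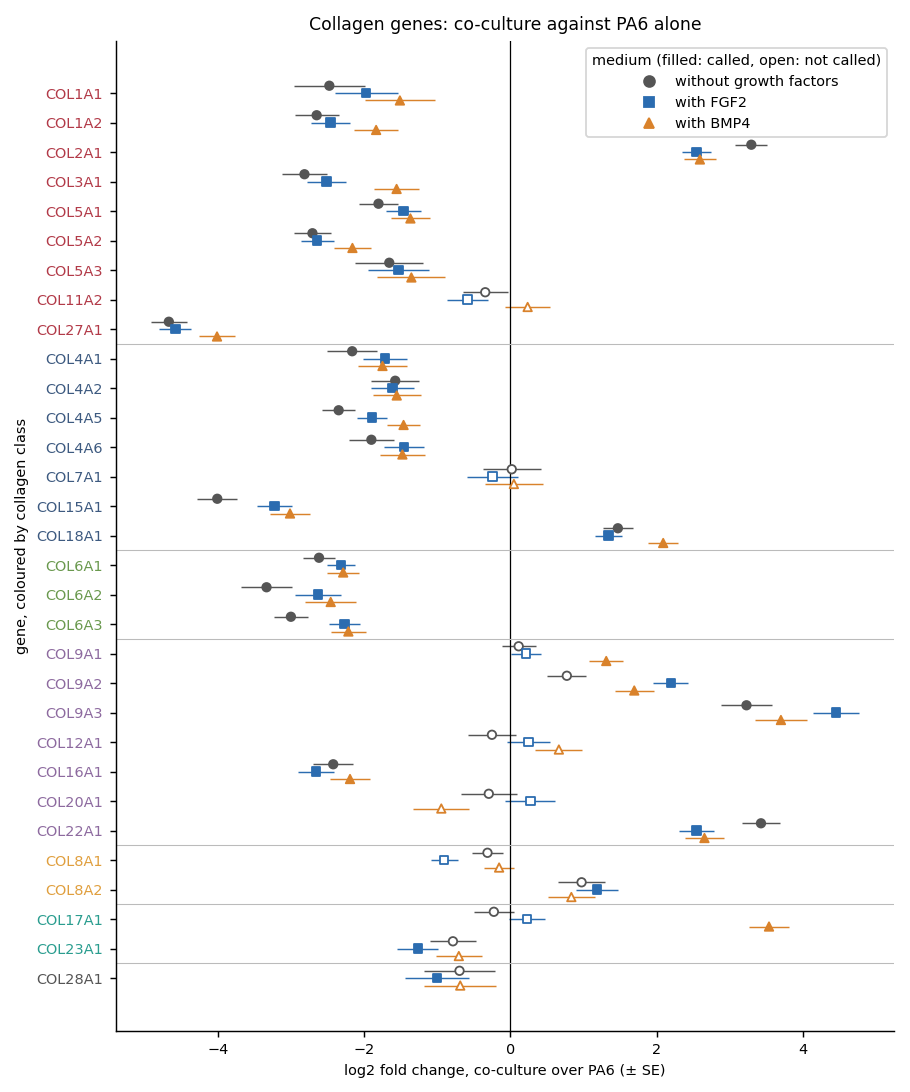
Log2 fold change of co-culture over PA6 alone for the 31 collagen genes, with a symbol per medium, bars of ± 1 SE, and filled symbols for called genes. The 16 genes lower in all 3 media lie left of −1 and the 4 higher in all 3 lie right of 1, while COL9A1 and COL17A1 are filled with BMP4 alone.

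Of 59 genes that build, process and bind collagen, 37 were lower in -GFs co-cultures and 3 higher, which is 62.7% and 5.08% beside the 21.8% and 22.3% of all genes. With FGF2 40 were lower and 3 higher, and with BMP4 34 and 4. Of 13 genes for prolyl and lysyl hydroxylation and glycosylation, 6 were lower and 0 higher in -GFs medium, among them CRTAP of the prolyl 3-hydroxylase complex (−2.21 ± 0.14) and the lysyl hydroxylase PLOD2 (−1.64 ± 0.30). Of 8 genes for folding and export, 6 were lower, including the collagen chaperone SERPINH1 (−1.15 ± 0.13) and FKBP10 (−2.35 ± 0.26). Of 3 crosslinking enzymes 2 were lower, LOX by 6.80-fold and LOXL1, and of 6 collagen receptors 4 were lower, with DDR2, a receptor for fibrillar collagen, at least 5.69-fold lower.

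Propeptide removal and the basement membrane partners were mixed. The procollagen proteinases ADAMTS2 (−3.91 ± 0.27) and BMP1 and the enhancer PCOLCE (6.70-fold) were lower, whereas the related enhancer PCOLCE2 was at least 2.43-fold higher. Of 14 basement membrane partners 8 were lower, including the linker NID2 (6.43-fold), and 2 were higher, with the laminin chain LAMA1 at least 10.9-fold higher. Of 11 proteins found with fibrils, 8 were lower and 0 higher, FN1 by 7.85-fold. With FGF2 and BMP4, 7 and 7 of the 13 modifying genes were lower, 6 and 5 of the 8 for folding and export, 2 and 2 of the 3 crosslinking enzymes, 8 and 7 of the 14 basement membrane partners, 8 and 5 of the 11 fibril partners, and 6 and 5 of the 6 receptors.

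The stromal marker list moved with the collagen genes. Of its 15 genes, 13 were lower in -GFs co-cultures, 14 with FGF2 and 10 with BMP4, with medians of −2.99, −2.69 and −2.42. Their summed intensity was 31228 and 51677 on the -GFs co-culture arrays, 30498, 57099 and 49679 with FGF2, and 58771 and 63455 with BMP4, and it ran from 231383 to 286028 on the PA6 arrays. The first -GFs and first FGF2 co-cultures had the lowest stromal sums of their groups. Of the 16 genes lower in all media, 14 were lowest on that -GFs array, of 2 in the group, and 11 on that FGF2 array, of 3. COL5A3 and COL6A3 were lowest on another array in both groups, and COL3A1, COL4A5 and COL27A1 in the FGF2 group. The share of all genes lowest on these arrays is not given here, so the counts do not tie the collagen genes to the stromal sums. Of the stromal markers, only CCL9 was undetected on both -GFs co-culture arrays and none on the other co-culture groups. Whether PA6 cells were fewer in a co-culture or held less collagen RNA per cell cannot be told apart in RNA from whole wells, and the part of the stromal share was not tested.

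**Figure D3:**
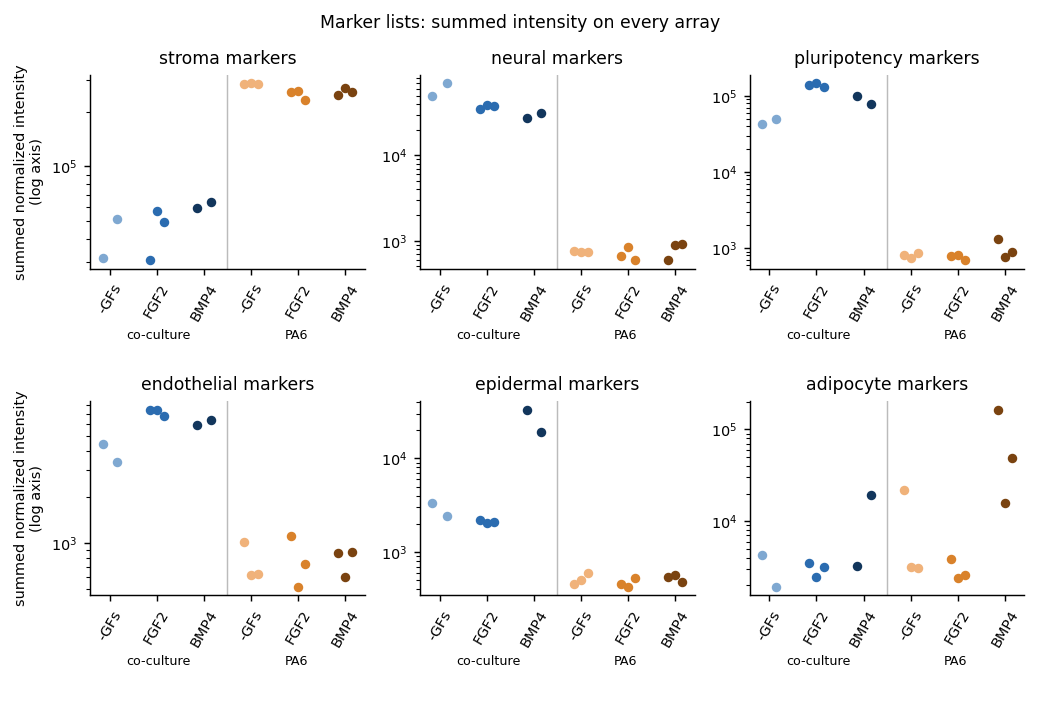
Summed normalized intensity of each marker list on every array, on a log axis, with co-cultures on the left and PA6 on the right of each panel. The stromal sums of the co-cultures, 30498 to 63455, all lie below those of PA6, 231383 to 286028, and the epidermal sums of the BMP4 co-cultures, 18914 and 33056, lie above all others.

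With FGF2, 2 collagen genes rose in the co-cultures, COL9A2 and COL15A1, and 0 fell. The rises are 6.45% of the 31, against 5.07% of all genes called higher and 2.35% called lower, so near the background share. The medians were 0.02 for collagen and −0.06 for all genes. COL9A2 stood at 6.69 and 7.25 in -GFs medium and at 8.30, 9.38 and 9.01 with FGF2, so the groups were apart. It rose 3.81-fold (1.93 ± 0.34, adjusted p = 0.0229). Without the first -GFs array the change was 1.64 (adjusted p = 0.141) and the call was lost. COL9A2 is read by 1 probe past the filter.

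COL15A1 stood at 6.06 and 6.42 without FGF2 and at 7.51, 8.59 and 7.55 with it, again apart, and rose 3.11-fold (1.64 ± 0.34, adjusted p = 0.0394). The call was lost without the first -GFs array (1.46, adjusted p = 0.196) or the second (1.82, adjusted p = 0.112), and without background correction the change was 0.91. All 3 FGF2 co-culture arrays still lay below every PA6 array, the lowest of which was 9.97.

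Several collagen genes had values with FGF2 short of a call. COL9A3 stood at 9.29 and 8.46 without and at 10.63, 10.52 and 9.43 with FGF2 (1.32 ± 0.44, adjusted p = 0.135), and it was called, at 1.70, once the third FGF2 array was left out. Some other alternatives called it too, among them median scaling (1.08) and no background correction (1.10). COL2A1 was at −0.75 ± 0.21 (adjusted p = 0.0860), below the fold threshold, with all 3 FGF2 arrays under both -GFs arrays. COL28A1 was at 0.96 (adjusted p = 0.257) and COL6A2 at 0.70 (adjusted p = 0.213), called at 1.18 without the second -GFs array. COL4A6 was at −0.63 and was called at −1.28 without the first. For COL1A1 the change was −0.16 with a 95% interval from −1.44 to 1.11, for COL3A1 0.06 from −0.47 to 0.59, for COL4A1 0.15 from −0.51 to 0.82 and for COL18A1 0.06 from −0.42 to 0.53.

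Of the 59 genes of the collagen-related lists, 3 rose with FGF2 in co-cultures and 0 fell, and these 5.08% are near the 5.07% of all genes called higher. They were PCOLCE2 (3.62-fold, adjusted p = 0.0174), NID2 (2.69-fold, adjusted p = 0.0105) and the laminin chain LAMA3 (at least 2.20-fold, adjusted p = 0.00476). Of 7 endothelial markers tested 2 rose and 5 were not called. PECAM1 rose 9.45-fold and TEK, a receptor of vessel endothelium, at least 5.86-fold, while TIE1, ICAM2 and ERG were undetected with FGF2. The summed endothelial list was 6748 to 7465 against 3383 and 4430 in -GFs medium. Of 11 pluripotency markers 10 rose. Of 15 stromal markers 0 were called, and their summed levels overlapped between the groups. The part of these shares in the collagen values was not tested.

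**Figure D4:**
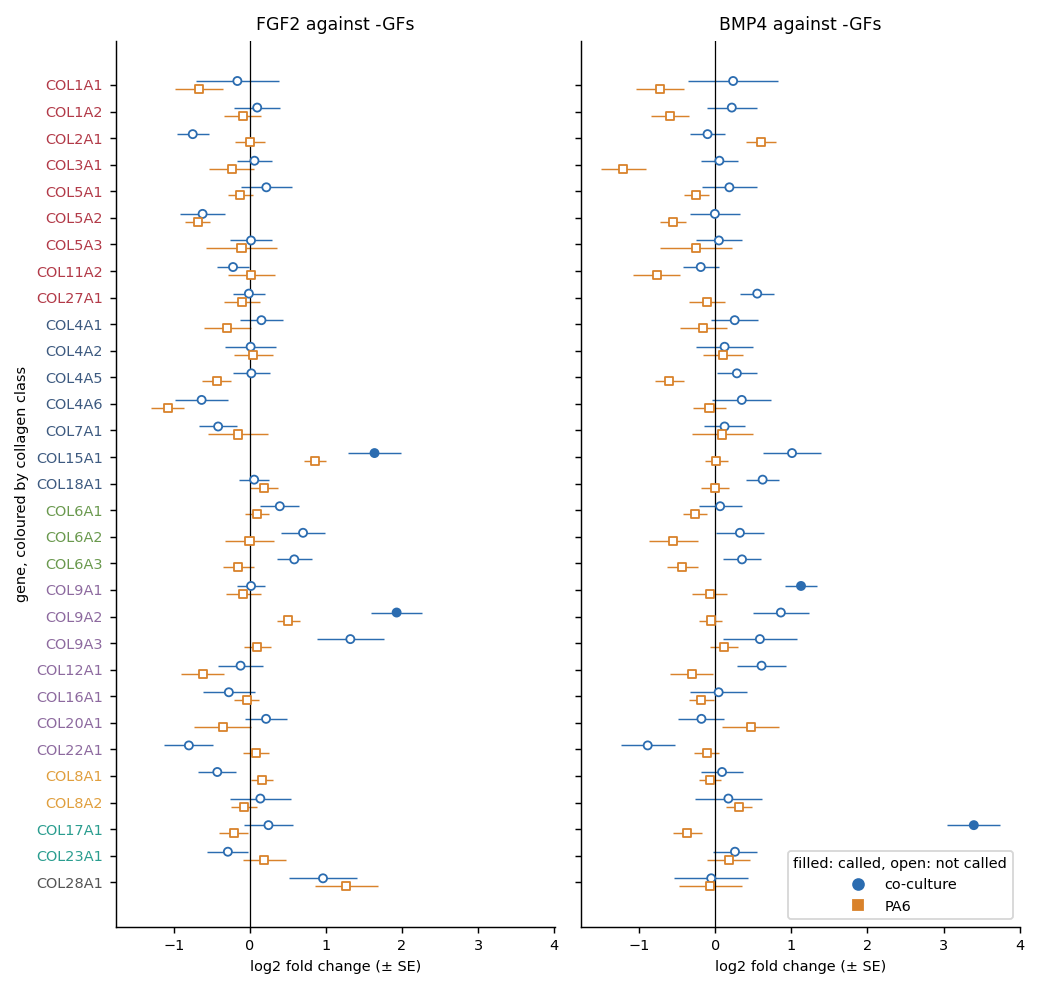
Log2 fold changes of FGF2 (left) and BMP4 (right) over -GFs medium for the 31 collagen genes, circles for co-cultures and squares for PA6 alone, with bars of ± 1 SE and filled symbols for called genes. In co-cultures COL9A2 and COL15A1 are filled for FGF2 and COL9A1 and COL17A1 for BMP4, and no PA6 symbol is filled.

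With BMP4, COL17A1 and COL9A1 rose in the co-cultures and 0 collagen genes fell. These are 6.45% of the 31, against 2.28% of all genes called higher and 1.47% lower, with medians of 0.22 for collagen and −0.0015 for all genes. Both genes passed the detection filter only through the BMP4 co-cultures, where they were high, so this share is no support for a response of collagen genes. COL17A1 encodes the membrane collagen of hemidesmosomes, which hold basal epidermal cells to the basement membrane. Its levels were 5.69 and 5.79 in -GFs co-cultures, where no probe of the gene was detected, 6.59, 5.81 and 5.54 with FGF2, and 9.31 and 8.96 with BMP4. The BMP4 arrays stood clear of the other 14 arrays, whose highest was 6.59. COL17A1 was at least 6.05-fold higher than in -GFs medium (3.40 ± 0.35, adjusted p = 0.00925), and this call held in 16 of 16 alternatives that tested the gene. Its other probes moved the same way, by 1.49 and 2.58.

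LAMA3, the α chain of the laminin that anchors hemidesmosomes, rose at least 7.42-fold with BMP4 (adjusted p = 0.0012), and was the only 1 of the 59 genes of the collagen-related lists called. Of 7 epidermal markers tested 4 rose, the keratin KRT14 at least 109.6-fold, KRT15 76.2-fold, KRT18 2.19-fold and the basal regulator TRP63 at least 20.3-fold. The summed epidermal list was 33056 and 18914 with BMP4 against 3317 and 2443 in -GFs medium and 2064 to 2219 with FGF2. KRT5, KRT14, TRP63 and PERP were undetected in -GFs co-cultures, and PERP alone with BMP4. COL17A1 stood at 9.31 and 8.96 on these 2 BMP4 arrays, which are too few to relate its level to the epidermal sum. Other lists moved with BMP4 as well. Of 11 pluripotency markers 3 rose, of 7 endothelial markers 2 and of 15 stromal markers 1. Of 3 markers of extraembryonic endoderm 1 rose, and of 9 neural markers 3 fell. The part of the epidermal share, or of any of these, in the COL17A1 level was not tested.

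COL9A1 stood at 5.68 and 5.99 in -GFs co-cultures, at 5.86, 5.79 and 5.90 with FGF2 and at 6.81 and 7.11 with BMP4. Its main probe was detected on the 2 BMP4 co-culture arrays and on no other. COL9A1 was at least 1.34-fold higher with BMP4 (1.13 ± 0.20, adjusted p = 0.0457). The call was lost when any -GFs or BMP4 co-culture array was left out, with changes of 0.97 to 1.28 and adjusted p from 0.109 to 0.187, and in 8 of 16 alternatives in all. Without the detection filter another probe of the gene was the brightest, and its change was −0.31. Of the cartilage markers 0 of 3 tested were called with BMP4, and 7 of the 9 on the array were undetected.

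Other values with BMP4 fell short of a call. COL15A1 was at 1.01 ± 0.38 (adjusted p = 0.268), with both BMP4 arrays, 7.23 and 7.27, above both -GFs arrays, and it was called without the second FGF2 array, which lends its spread to the fit. COL18A1 was at 0.62 (adjusted p = 0.244), with 13.14 and 13.18 against 12.74 and 12.34. COL22A1 was at −0.89 (adjusted p = 0.300) and COL9A2 at 0.86 (adjusted p = 0.343). The 95% interval was −1.16 to 1.63 for COL1A1, −0.52 to 0.63 for COL3A1 and −0.47 to 0.99 for COL4A1, and that of COL1A1 reached beyond the fold threshold on both sides.

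BMP4 and FGF2 co-cultures were also compared directly, on arrays that the preceding comparisons share. COL17A1 was 8.90-fold higher with BMP4 (3.15 ± 0.32, adjusted p = 0.0134) and COL9A1 at least 1.40-fold higher (1.11 ± 0.19, adjusted p = 0.0717), 2 of 31 beside 0.755% of all genes higher and 0.688% lower. Both had passed the detection filter only through the BMP4 co-cultures. With a block for replicate number in limma COL17A1 was at 2.93 (adjusted p = 0.116) and not called. The COL9A1 call was lost without any FGF2 or BMP4 array, with adjusted p from 0.118 to 0.370. COL9A2 was at −1.07 (adjusted p = 0.227), COL28A1 at −1.01 (adjusted p = 0.370) and COL4A6 at 0.98 (adjusted p = 0.276).

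**Figure D5:**
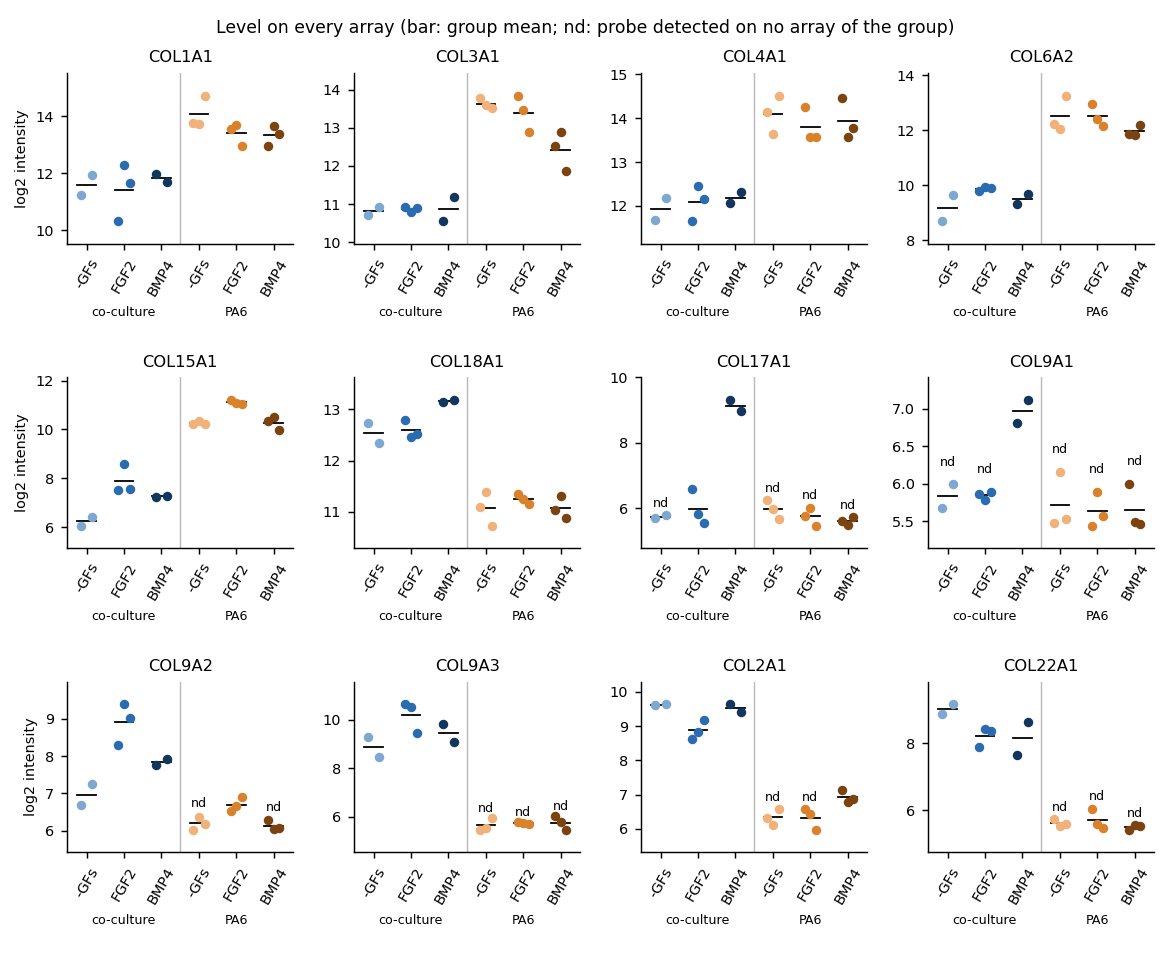
Normalized log2 intensity of 12 collagen genes on every array, a point per array and a bar at the group mean, with co-cultures left and PA6 right of the grey line and nd where the probe shown was detected on no array of the group. COL1A1, COL3A1, COL4A1 and COL6A2 lie lower in co-cultures whatever the medium, and COL17A1 stands at 9.31 and 8.96 with BMP4 and at 6.59 or below on every other array.

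In PA6 cells alone no collagen gene was called in limma with FGF2 or with BMP4, beside 0.027% and 0% of all genes. The lowest adjusted p among the collagen genes was 0.142 with FGF2 and 0.477 with BMP4, and 6 and 7 of the 31 had an unadjusted p under 0.05. The share of all genes under that unadjusted limit is not given here, so these counts show no excess. With FGF2 COL15A1 was at 0.86 ± 0.15 (adjusted p = 0.142), the arrays at 11.20, 11.08 and 11.05 lying above 10.21, 10.33 and 10.23. COL4A6 was at −1.08 ± 0.21 (adjusted p = 0.156), with 7.58, 7.81 and 7.31 below 8.57, 8.88 and 8.49, and was called under median scaling (−1.32, adjusted p = 0.0701). COL28A1 was at 1.27 ± 0.41 (adjusted p = 0.355) and COL5A2 at −0.69 ± 0.17 (adjusted p = 0.224).

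With BMP4 the fibrillar genes had a median of −0.55 in PA6, none of the 9 called. COL3A1 was at −1.21 ± 0.30 (95% interval from −1.88 to −0.53, adjusted p = 0.477), with 12.51, 12.90 and 11.87 below all 3 -GFs arrays. COL1A1 was at −0.73, COL1A2 and COL4A5 at −0.60, COL5A2 at −0.55 and COL2A1 at 0.60, with adjusted p from 0.477 upward throughout. PA6 cells can form fat cells, and the summed adipocyte list ran from 15684 to 164365 on the BMP4 arrays against 3120 to 22127 without a factor. The part of the adipocyte share in the collagen values was not tested.

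The size of a factor effect was tested between both cultures on all 16 arrays. For FGF2, COL9A2 changed more in co-cultures than in PA6, by 1.42 ± 0.36 (adjusted p = 0.0321), 1 of 31 beside 4.92% of all genes with a larger effect in co-cultures and 2.98% with a smaller one. The call was lost without the first -GFs co-culture array (1.14, adjusted p = 0.140). COL15A1, with 1.64 in co-cultures and 0.86 in PA6, differed by 0.78 ± 0.36 (adjusted p = 0.232), and COL9A3 by 1.22 (adjusted p = 0.146), called at 1.61 without the third FGF2 co-culture. COL4A6 was called at 1.09 without the second -GFs co-culture.

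For BMP4, 2 of 31 had a larger effect in co-cultures, beside 2.61% of all genes larger and 1.63% smaller, COL17A1 by 3.76 ± 0.39 (adjusted p = 0.000179) and COL9A1 by 1.20 ± 0.33 (adjusted p = 0.0741). Both had passed the detection filter only through the BMP4 co-cultures. The COL9A1 call was lost without the first -GFs or either BMP4 co-culture, and without replicate 2 of -GFs, replicate 3 of FGF2 or replicates 2 and 3 of BMP4 in PA6. COL3A1, at 0.05 in co-cultures and −1.21 in PA6, differed by 1.26 ± 0.43 (adjusted p = 0.157) and was called without the second BMP4 array of PA6 (adjusted p = 0.0847). COL22A1 was called at −1.26 without the second BMP4 co-culture. The difference for LAMA3 was 3.84 ± 0.23 (adjusted p = 2.13e-06).

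The remaining 9 collagen genes did not pass the detection filter and were not tested. COL10A1, the collagen of hypertrophic cartilage, and COL4A3 and COL4A4, chains of the basement membrane of the kidney glomerulus, had no detected probe on any array. COL24A1 had one on 1 array, COL19A1 on 2, COL14A1 on 3, COL25A1 on 4, COL13A1 on 5 and COL11A1 on 6. The highest raw intensity of COL13A1 was 1016 and that of the others at most 450. None of the 9 was detected by a probe on every array of a group.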

How the data were processed

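RNA of 16 cultures, collected at day 7, had been measured on the MouseWG-6 v2.0 BeadChip of Illumina, an array per culture. The deposited table holds, per probe and array, a mean bead intensity that the authors had not normalized, and a detection p-value, which the deposited header names. Per the labels the scans were processed with GenomeStudio 2011.01. It pairs probes with target names and gives no coordinates.

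Intensities were background corrected (normexp from the detection p-values), quantile normalized and, with 16 added, taken as log2 (neqc, limma 3.58.1, R 4.3.3). Probes were kept where detection p was under 0.05 throughout at least 1 group, 20880 of 45281, of which 50 of the 88 collagen probes, and each gene was read by its probe of largest mean. Of the 40 collagen genes 27 had more than 1 probe, and 15 had more than 1 past the filter. Linear models (lmFit, eBayes) were fitted to the 7 co-culture arrays, to the 9 PA6 arrays, and to all 16 for comparisons between cultures. Comparisons within a culture share their -GFs arrays. A call needed an adjusted p under 0.1 and a log2 change over 1 in size. Where the probe read was detected on no array of a group, the fold is a lower limit ("at least"), set against the dimmest signal that counted as detected there. Intervals are 95%. The number of arrays limits the precision, and bright probes compress folds.

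Values on every array are given for COL1A1, COL1A2, COL3A1, COL4A1, COL4A2, COL18A1 and, in full or as a range, for up to 5 rises and 5 falls of largest size per comparison. The members, gene lists and classes were chosen with earlier results of these data known. For BMP4 the paper's methods give a smaller dose than the labels. Replicate numbers were not taken as pairs. Alternatives changed the normalization, background, offset, filter, probe choice, variance model, thresholds and block, and left out each array in turn. Tests were checked on simulated data. Promoter windows are from RefSeq. Their build, GRCm38.p6, is that of the gene table.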

Additional observations from a re-analysis of the deposited data

Results flagged for a closer look

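For 3 collagen genes the effect of a growth factor differed between co-cultures and PA6 alone in the test of the difference itself (limma over all 16 arrays). The FGF2 effect on COL9A2 was larger in co-cultures by 1.42 on the log2 scale (adjusted p = 0.0321), rising on 3 of 3 FGF2 co-culture arrays above both -GFs arrays. The BMP4 effect on COL17A1 was larger in co-cultures by 3.76 (adjusted p = 0.000179), and that on COL9A1 by 1.20 (adjusted p = 0.0741). Both genes passed the detection filter only through the BMP4 co-cultures. That these arrays stood above every other array is therefore no separate support. Without the filter another COL9A1 probe was read, and the difference was −0.57. Groups of 2 or 3 arrays were too small for a check of outlying samples.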

How the results depend on the processing

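The counts of collagen genes called between co-culture and PA6 kept within 1.5 times of 20, 24 and 23 (-GFs, FGF2, BMP4) under all alternatives but detection on all 16 arrays, where 18 collagen genes were tested and 13, 15 and 13 were called. Leaving out an array gave 20 to 22, 23 to 25 and 23 to 24. In co-cultures FGF2 over -GFs gave 0 calls with detection on all 16 arrays, 4 with a block for the run of columns in the table (a choice made after seeing the data), and 1 to 3 with an array left out. BMP4 over -GFs gave 1 call without background correction, with an offset of 50, without a detection filter or with the replicate block, 0 with detection on all 16 arrays, and 1 to 3 with an array left out. BMP4 over FGF2 gave 1 without background correction, with an offset of 50, without a filter or at adjusted p under 0.05, 0 with detection on all 16 arrays or the replicate block, 4 with the run block, and 1 to 2 with an array left out. In PA6 FGF2 gave 1 call under median scaling, and leaving out an array gave 0 to 0 calls for either factor. The difference of FGF2 effects gave 0 under median scaling, without background correction or with detection on all 16 arrays, 2 with the replicate block or the run block, and 0 to 2 with an array left out. The difference of BMP4 effects gave 1 without background correction, with an offset of 50, without a filter or at adjusted p under 0.05, 0 with detection on all 16 arrays, and 1 to 2 with an array left out. The stricter filter leaves out COL9A1, COL9A2 and COL17A1, undetected in some groups, and COL15A1, undetected on 1 array. Without a filter COL9A1 was read by another probe. Its changes reversed to −0.31 (BMP4 over -GFs), −0.20 (BMP4 over FGF2), −0.57 (difference of BMP4 effects) and −0.51 (co-culture over PA6 with BMP4). For the other lost calls the cause was not tested.

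With the replicate block COL17A1 was 2.93 (adjusted p = 0.116) and COL9A1 1.13 (adjusted p = 0.156) for BMP4 over FGF2, COL9A1 was 1.13 (adjusted p = 0.116) for BMP4 over -GFs, and COL9A3 was 1.70 (adjusted p = 0.0568) for FGF2 over -GFs. It also ended the calls of COL23A1 (−0.84) and COL8A2 (0.61) between the cultures with FGF2, and called the differences of effects of COL9A3 for FGF2 (1.61) and COL3A1 for BMP4 (1.26); between the cultures it called COL8A1 with FGF2 (−1.12) and COL20A1 with BMP4 (−1.24). Same-numbered arrays correlated at 0.0697 to 0.199 in PA6 and −0.199 to 0.283 in co-cultures, so the numbers were not used as pairs; different-numbered PA6 arrays correlated at −0.136 to −0.0122. Co-culture arrays of the same run correlated at 0.0976 to 0.283. The run block ended the calls of COL9A2 between the cultures with BMP4 (0.86), of COL23A1 (−0.92) and COL8A2 (0.36) with FGF2, and of COL9A1 for the difference of BMP4 effects (adjusted p = 0.103). Median scaling moved the median of all genes by 0.25 (BMP4 over FGF2) to −0.15 (FGF2 over -GFs in co-cultures). Without background correction COL5A3, COL4A6, COL9A1, COL9A2, COL23A1, COL28A1 and COL8A2 each fell below the fold threshold in at least 1 comparison of the cultures. Groups of 2 arrays and probes near the background limit these values.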
